A study of Mus musculus with 6 samples.

Results

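The genes that set up the dorsoventral axis of the mouse retina were followed in the peripheral ventrotemporal (VT) retina of WT and Slc6a4-/- mice after optic nerve crush (ONC). They were 7 genes with textbook roles, chosen by name among the 701 genes of the deposited table with earlier results of these data known. Of them, 5 are dorsal (Tbx5, Aldh1a1, Bmp4, Efnb2 and Nr2f2) and 2 ventral (Vax2 and Chrdl1). WT mice were C57BL/6J, and Slc6a4-/- mice, which the labels record as C57BL/6 like the WT mice, were a separately bought constitutive mutant line that lacks the serotonin transporter SERT in every cell. All mice were 8 weeks old (postnatal day 56) and all had the left optic nerve crushed 24 h, or 1 day, before the retina was taken, so uninjured retina is not part of the comparison. Each genotype had 3 libraries (WT 1 to WT 3 and Slc6a4-/- 1 to Slc6a4-/- 3), and each library held the VT retinae of 3 mice pooled before RNA extraction. Both sexes were used and which sex went into which pool is not given in the sources used here.

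In the embryonic eye, BMP4 made at the dorsal side induces the T-box factor TBX5, while the homeodomain factor VAX2 marks the ventral side, and the BMP antagonist Chordin-like 1, also called Ventroptin, limits BMP signalling ventrally. Downstream of these factors lie the graded ephrin-B ligands and Eph-B receptors that guide retinal axons, and the retinaldehyde dehydrogenases that make retinoic acid, of which ALDH1A1 is the dorsal one. Parts of the gradient persist in the adult retina, where cones carry more short-wavelength opsin (Opn1sw) ventrally and more medium-wavelength opsin (Opn1mw) dorsally.

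The 701 genes had been selected by the authors at a p-value below 0.05 in the same 6 libraries, so every gene entered the table because of its difference between the genotypes and none of the differences reported here is independent evidence. Counts were divided by the relative depth of each library, which ran from 0.909 to 1.132 of the mean for 75.5 to 94.0 M reads, and are called scaled counts. Slc6a4 itself had 1668, 1461 and 1631 scaled counts in WT 1 to WT 3, but 0, 0 and 3 reads in Slc6a4-/- 1 to 3, so the mutant libraries were at least 560-fold lower when 3 reads per library are taken as the floor. The WT libraries differed among themselves: WT 1 was the one nearest to the Slc6a4-/- values for 397 of the 701 genes (56.6%) and for all 7 patterning genes. WT 3 was the one farthest from them for 353 genes (50.4%). Leaving out a library can only reduce overlap, and of 288 genes whose genotypes overlapped 169 (58.7%) separated without WT 1, 136 (47.2%) without Slc6a4-/- 3 and 25 to 64 without one of the others. Of the 5 overlapping patterning genes, all separated without WT 1, 2 without Slc6a4-/- 3 and 0 without any of the others. The libraries are pools of tissue, and in such bulk samples fewer cells of a type and less RNA per cell cannot be told apart.

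Promoter sequence was read for the patterning genes that the RefSeq table for GRCm38.p6 holds, which were Aldh1a1, Bmp4, Efnb2 and Nr2f2, as 250 bases before to 50 bases after an annotated start. The 3 printed here belong to dorsal genes whose values rose and fell together over the libraries, and capitals mark a match to the T-box motif AGGTGTGA on either strand.
Aldh1a1, plus strand, chr19:20492333-20492632: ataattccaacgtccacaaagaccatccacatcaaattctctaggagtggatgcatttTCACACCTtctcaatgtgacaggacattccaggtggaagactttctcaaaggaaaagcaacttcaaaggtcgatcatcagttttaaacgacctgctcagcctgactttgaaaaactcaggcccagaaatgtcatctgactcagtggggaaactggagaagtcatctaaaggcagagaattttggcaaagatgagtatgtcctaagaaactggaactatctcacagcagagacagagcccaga
Nr2f2, minus strand, chr7:70366697-70366996: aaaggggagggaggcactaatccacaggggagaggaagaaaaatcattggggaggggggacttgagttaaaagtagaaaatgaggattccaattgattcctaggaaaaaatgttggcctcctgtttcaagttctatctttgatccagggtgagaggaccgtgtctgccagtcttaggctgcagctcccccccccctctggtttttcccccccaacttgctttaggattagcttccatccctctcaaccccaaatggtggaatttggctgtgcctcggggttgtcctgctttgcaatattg
Efnb2, minus strand, chr8:8661193-8661492: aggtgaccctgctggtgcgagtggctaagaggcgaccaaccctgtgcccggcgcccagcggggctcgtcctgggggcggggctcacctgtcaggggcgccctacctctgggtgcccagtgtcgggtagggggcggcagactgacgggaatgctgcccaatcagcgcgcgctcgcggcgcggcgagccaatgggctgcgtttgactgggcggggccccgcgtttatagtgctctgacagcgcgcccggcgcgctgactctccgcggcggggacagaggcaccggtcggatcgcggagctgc

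The T-box motif, read here as TCACACCT, stood at position -192 from the upstream Aldh1a1 start, whose window is printed above. Of 32851 RefSeq promoters, 419 (1.28%) hold it on one strand or the other. The nuclear receptor motif AGGTCA, found in 16.3% of promoters, and the homeodomain motif TAATTA, found in 5.29%, had no match in the 3 windows printed. The windows differed in base composition, since the Efnb2 promoter had 35 CpG dinucleotides and 72.3% GC, the upstream Aldh1a1 promoter 3 CpG and 43.3% GC, and the Nr2f2 promoter 2 CpG and 49.7% GC. The median promoter of the RefSeq table had 7 CpG. The downstream Aldh1a1 start (chr19:20601718-20602017) and the Bmp4 start (chr14:46390620-46390919) held none of the 3 motifs. Which Aldh1a1 start is used in these libraries was not tested. These are letter matches only and were not tested as binding sites.

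Among the 7 genes, Vax2 alone was lower in Slc6a4-/- VT retina on average and the other 6 were higher. The 5 dorsal genes all lay on the higher side, with a median log2 fold change of 0.60 against 0.30 over the 701 genes, of which 397 were higher and 304 lower. Adjusted by Benjamini-Hochberg over the table, none of the 7 genes had an adjusted p below 0.05 in limma, where 9 of 701 genes (1.28%) did, and their adjusted p-values ran from 0.11 to 0.23. At an unadjusted p below 0.05, 3 of the 7 passed (Aldh1a1, Bmp4 and Chrdl1), where 45.8% of the table did. The Slc6a4-/- libraries lay wholly above the WT libraries for Bmp4 and Chrdl1, as they did for 35.2% of the table, and wholly below for none of the 7, against 23.7% of the table. In size, 6 of the 7 differences exceeded the table's median absolute log2 fold change of 0.49, and each of the 7 kept its direction under all 15 alternative settings. Those settings reuse the same 6 libraries on genes selected for this contrast, so a kept direction is no independent evidence. The share of the 701 genes that kept their direction is not given here. Scaling mattered to the size, since the table median itself moved from 0.30 to 0.10 when each library was centred on its own median and to 0.475 with no scaling.

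**Figure D1:**
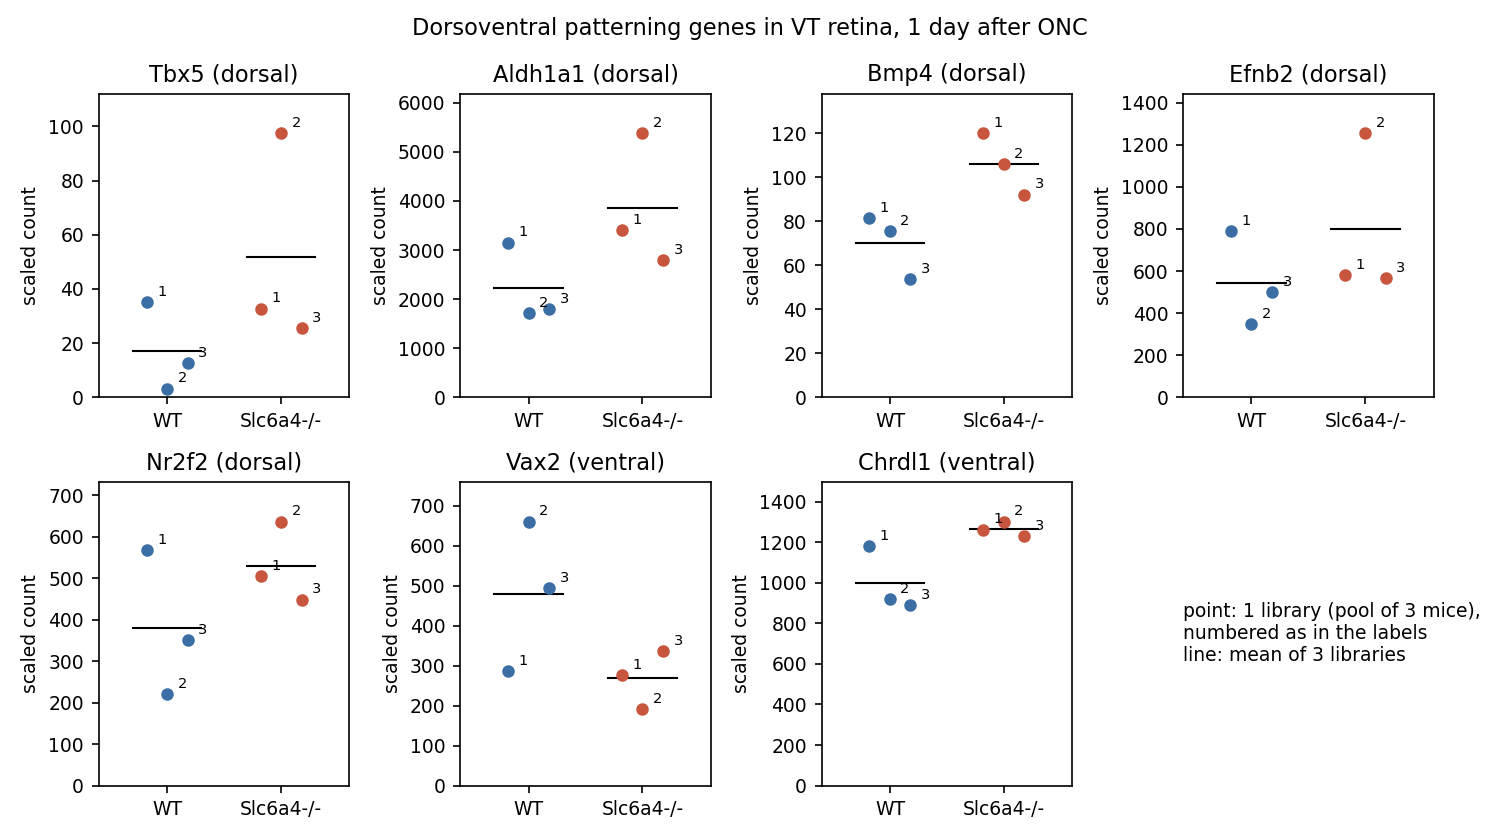
Scaled counts (vertical axes, from 0) of the 7 dorsoventral patterning genes in each library of WT (blue) and Slc6a4-/- (red) VT retina, with each point a pool of 3 mice and the line the mean of 3 libraries. The genotypes separate for Bmp4 and Chrdl1, while for the other 5 genes WT 1 sits among the Slc6a4-/- libraries.

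Tbx5, the T-box factor that specifies dorsal retina, had the largest fold difference and the fewest reads. Its scaled counts were 35.2, 3.14 and 12.6 in WT 1 to 3 and 32.7, 97.5 and 25.6 in Slc6a4-/- 1 to 3. Slc6a4-/- 2 stood far above the rest and WT 2 far below, while WT 1 exceeded 2 of the Slc6a4-/- libraries, so the genotypes overlapped. The means were 17.0 ± 16.5 for WT (SD, n = 3) and 51.9 ± 39.6 for Slc6a4-/- (SD, n = 3), a 3.05-fold difference of means. The log2 fold change in limma was 1.81 (SE 0.87, 95% interval -0.25 to 3.87), with an adjusted p of 0.11 (Benjamini-Hochberg). The 3 reads of WT 2 have an exact Poisson interval of 0.619 to 8.77 reads and the 105 reads of Slc6a4-/- 2 one of 85.9 to 127 reads, which cover counting error only. The spread within WT was 11.2-fold, and the interval of WT 1 (21.9 to 45.2 reads) did not overlap that of WT 2. Without WT 2 the log2 fold change was 1.00 and without WT 1 it was 2.57. The gene lies on the plus strand of chromosome 5 (GRCm38, 119832668 to 119885219).

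Nr2f2 encodes COUP-TFII, an orphan nuclear receptor of the dorsal optic cup (minus strand of chromosome 7, 70351944 to 70366735). It had 569, 221 and 351 scaled counts in WT 1 to 3 and 505, 637 and 449 in Slc6a4-/- 1 to 3. WT 2 and WT 3 lay below every Slc6a4-/- library and WT 1 lay above 2 of them. Means were 380 ± 176 for WT (SD, n = 3) and 530 ± 96.5 for Slc6a4-/- (SD, n = 3). The log2 fold change was 0.57 (SE 0.34, 95% interval -0.23 to 1.37, adjusted p = 0.16 in limma with Benjamini-Hochberg adjustment). It was 0.23 without WT 2 and 0.91 without WT 1, and only in the latter fit did Nr2f2 pass (adjusted p = 0.048 in limma). In that fit 24.4% of the table passed.

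Efnb2, the ephrin-B ligand of dorsal retina that Eph-B receptors bind (minus strand of chromosome 8, 8617434 to 8661242), ranked the libraries as Nr2f2 did. Scaled counts were 788, 347 and 501 in WT 1 to 3 and 580, 1256 and 568 in Slc6a4-/- 1 to 3. One library, Slc6a4-/- 2, was far above all others, and WT 1 was second. The log2 fold change of 0.53 (SE 0.40, 95% interval -0.42 to 1.48, adjusted p = 0.23 in limma) fell to 0.15 without Slc6a4-/- 2 and rose to 0.84 without WT 1.

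Aldh1a1 had the most reads of the 7 genes. Its product oxidises retinaldehyde to retinoic acid in dorsal retina. The scaled counts were 3151, 1706 and 1790 in WT 1 to 3 and 3402, 5384 and 2790 in Slc6a4-/- 1 to 3. WT 2 and WT 3 were alike and low, Slc6a4-/- 2 was highest, and WT 1 exceeded Slc6a4-/- 3, so the groups overlapped at that pair of libraries alone. Means were 2215 ± 811 for WT (SD, n = 3) and 3858 ± 1356 for Slc6a4-/- (SD, n = 3), a 1.74-fold difference. In limma the log2 fold change was 0.80 (SE 0.31, 95% interval 0.06 to 1.55, adjusted p = 0.11). Without WT 1, a fit in which 24.4% of the table passed, it was 1.09 (adjusted p = 0.046 in limma). Without Slc6a4-/- 2 it was 0.53. Aldh1a1 lies on the plus strand of chromosome 19 (20492715 to 20643465).

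Vax2, the homeodomain factor of ventral retina, was the mirror image of Aldh1a1. It had 286, 660 and 493 scaled counts in WT 1 to 3 and 277, 191 and 336 in Slc6a4-/- 1 to 3. The 6 libraries stood in exactly the reverse of their Aldh1a1 order. WT 2 was highest, Slc6a4-/- 2 lowest, and WT 1 again lay among the Slc6a4-/- libraries. The reversal was not particular to this pair. Of the genes in the table, 9 had the reverse of the Vax2 order, Aldh1a1 among them. The reverse of the Aldh1a1 order was found for 6 genes, Vax2 among them. Vax2 means were 480 ± 187 for WT (SD, n = 3) and 268 ± 72.6 for Slc6a4-/- (SD, n = 3), 1.79-fold higher in WT. The log2 fold change was -0.79 (SE 0.34, 95% interval -1.61 to 0.02), with an adjusted p of 0.11 in limma. It was -0.52 without WT 2 and -1.12 without WT 1. Vax2 passed in the fit without WT 1 (adjusted p = 0.046 in limma), as did 24.4% of the table. Vax2 lies on the plus strand of chromosome 6 (83711264 to 83738313).

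**Figure D2:**
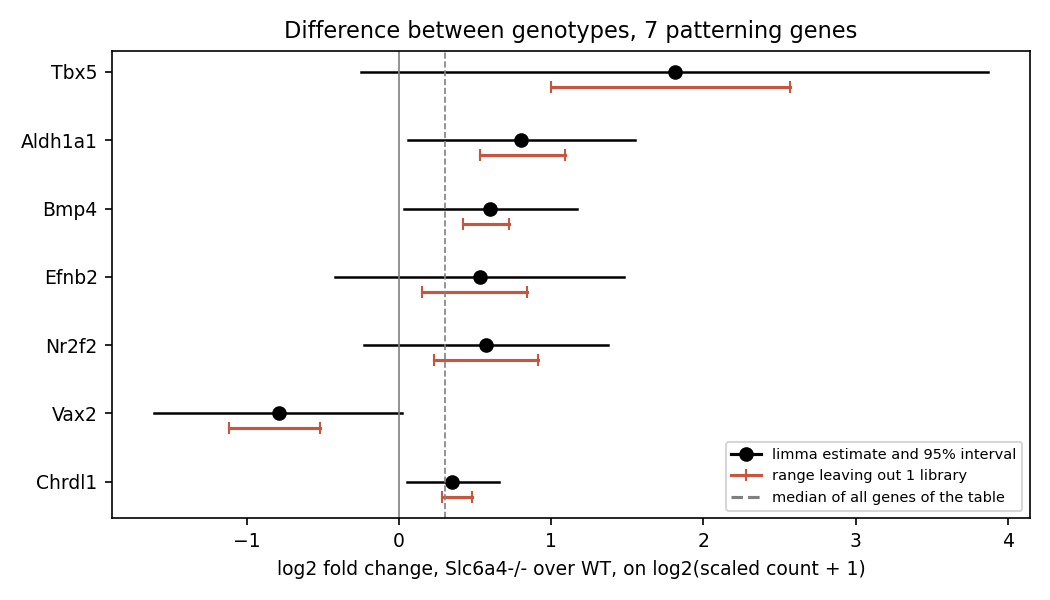
Log2 fold change of Slc6a4-/- over WT (horizontal axis, on log2 of the scaled count plus 1) for each gene, with the 95% interval of limma in black and, in red, the range when each of the 6 libraries is left out in turn. Only the intervals of Aldh1a1, Bmp4 and Chrdl1 lie above 0, and the red ranges of all 7 genes stay on one side of 0; the dashed line is the table median of 0.30.

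The BMP ligand and its antagonist were both higher in Slc6a4-/-, although one marks dorsal and the other ventral retina. Bmp4 (minus strand of chromosome 14, 46383520 to 46390669) had 81.4, 75.3 and 53.7 scaled counts in WT 1 to 3 and 120, 106 and 92.1 in Slc6a4-/- 1 to 3. Every Slc6a4-/- library lay above every WT library, by a margin that narrowed to WT 1 against Slc6a4-/- 3. Means were 70.2 ± 14.6 and 106 ± 14.0 (SD, n = 3 each), a 1.51-fold difference, and the log2 fold change was 0.60 (SE 0.24, 95% interval 0.03 to 1.17, adjusted p = 0.11 in limma). An exact two-sided permutation test gave p = 0.1, the smallest that 3 libraries against 3 allow. The read counts behind these values were modest: 74 reads in WT 1 have an exact Poisson interval of 58.1 to 92.9, which overlaps that of the 90 reads of Slc6a4-/- 3 (72.4 to 111).

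Chrdl1, whose product binds and blocks BMP4 (minus strand of chromosome X, 143285674 to 143394262), was also higher in Slc6a4-/-. It had 1181, 920 and 890 scaled counts in WT 1 to 3 and 1261, 1301 and 1229 in Slc6a4-/- 1 to 3. The Slc6a4-/- libraries were within 1.06-fold of each other and all lay above the WT libraries, of which WT 1 was close to them. The log2 fold change was 0.35 (SE 0.13, 95% interval 0.05 to 0.66, adjusted p = 0.11 in limma), near the table median of 0.30, and it shrank to 0.15 when each library was centred on its table median. Chrdl1 passed in 2 alternative fits: 0.48 without WT 1 (adjusted p = 0.041 in limma), where 24.4% of the table passed, and 0.53 with no scaling for depth (adjusted p = 0.047 in limma), where 22.8% did. Of 6 sex-linked genes listed, 1 was present, Gm26992, with 2.2, 22 and 48.5 scaled counts in WT 1 to 3 and 0, 0.929 and 16.4 in Slc6a4-/- 1 to 3. Gm26992 ran nearly opposite to Chrdl1: it was highest in WT 3 and WT 2, where Chrdl1 was lowest. It was lowest in Slc6a4-/- 1 and Slc6a4-/- 2, where Chrdl1 was highest. Bmp4, on chromosome 14, was likewise lowest in WT 3 and WT 2 and highest in Slc6a4-/- 1 and Slc6a4-/- 2. The opposite run was therefore not particular to the X-linked gene. The part of sex in the Chrdl1 values was not tested.

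Tbx5, Nr2f2 and Efnb2, which encode a T-box factor, a nuclear receptor and a membrane ligand, ranked the 6 libraries identically. From low to high the order was WT 2, WT 3, Slc6a4-/- 3, Slc6a4-/- 1, WT 1 and Slc6a4-/- 2, and of all 701 genes only Ctsd shared it with them. Aldh1a1 differed from that order by the exchange of WT 1 and Slc6a4-/- 1. The order held within each genotype as well as between them: after removal of the genotype means, the correlation with Tbx5 over the 6 libraries was 0.97 for Nr2f2, 0.96 for Efnb2, 0.90 for Aldh1a1 and -0.98 for Vax2. For Chrdl1 it was 0.73 and for Bmp4 0.14. Bmp4 ranked the libraries WT 3, WT 2, WT 1, Slc6a4-/- 3, Slc6a4-/- 2 and Slc6a4-/- 1, an order that 18 other genes of the table shared. Chrdl1 differed from Bmp4 in rank only at the top and shared its order with 37 other genes, but its WT 2 and WT 3 values were close, and within genotypes it correlated with Vax2 (-0.83), Aldh1a1 (0.81) and Nr2f2 (0.81) as well as with Bmp4 (0.65). The correlations are descriptions over 6 libraries that share their depth estimates, and the genes had been selected on the genotype difference.

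**Figure D3:**
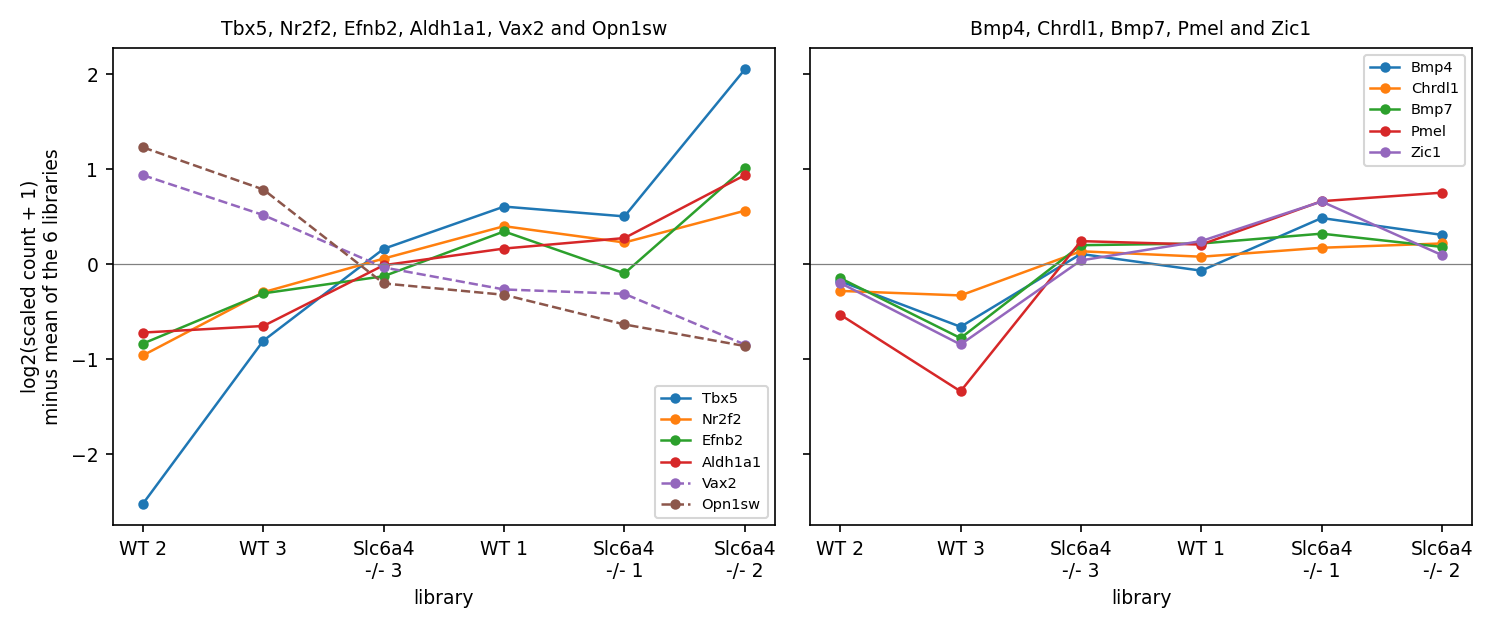
Log2 of the scaled count plus 1 in each library, minus the gene's mean over the 6 libraries (vertical axis), with libraries arranged from left to right by falling Vax2. Left, Tbx5, Nr2f2, Efnb2 and Aldh1a1 are lowest in WT 2 and highest in Slc6a4-/- 2, and Vax2 and Opn1sw (dashed) are the reverse; right, Bmp4, Chrdl1, Bmp7, Pmel and Zic1 are lowest in WT 3 instead.

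Ratios of reads within a library do not depend on the depth estimate. Tbx5 had 123, 4.75 and 25.6 reads per 1000 Vax2 reads in WT 1 to 3 and 118, 510 and 76.2 in Slc6a4-/- 1 to 3, so that Vax2 reads outnumbered Tbx5 reads in all 6 libraries. There were 11, 2.58 and 3.63 Aldh1a1 reads per Vax2 read in WT and 12.3, 28.1 and 8.31 in Slc6a4-/-. Nr2f2 reads per Vax2 read were 1.99, 0.334 and 0.712 against 1.82, 3.33 and 1.34. In each of these dorsal to ventral ratios WT 1 fell inside the Slc6a4-/- range, WT 2 was lowest and Slc6a4-/- 2 highest. All of them are ratios to Vax2, and the ratio of the ventral gene Chrdl1 to Vax2 had the same pattern. It was 4.13, 1.39 and 1.81 in WT 1 to 3 and 4.56, 6.8 and 3.66 in Slc6a4-/- 1 to 3. The pattern was therefore not particular to dorsal genes. The ratio within the BMP pair, which leaves Vax2 out, moved far less. It was 14.5, 12.2 and 16.6 Chrdl1 reads per Bmp4 read in WT and 10.5, 12.3 and 13.3 in Slc6a4-/-, with overlapping groups. Against Vax2, Bmp4 also moved widely, at 28.5, 11.4 and 10.9 reads per 100 Vax2 reads in WT and 43.5, 55.3 and 27.4 in Slc6a4-/-.

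The cone opsins, which follow the same axis in adult retina, moved with the dorsal to ventral ratios. There were 1.86, 7.5 and 4.37 Opn1sw reads per Opn1mw read in WT 1 to 3 and 1.54, 0.904 and 1.86 in Slc6a4-/- 1 to 3. WT 2, with the least Tbx5, had the highest share of short-wavelength opsin, and Slc6a4-/- 2, with the most Tbx5, the lowest. Opn1sw had a log2 fold change of -1.13 (adjusted p = 0.10 in limma) and Opn1mw one of 0.39 (adjusted p = 0.11 in limma), with overlapping groups for both.

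**Figure D4:**
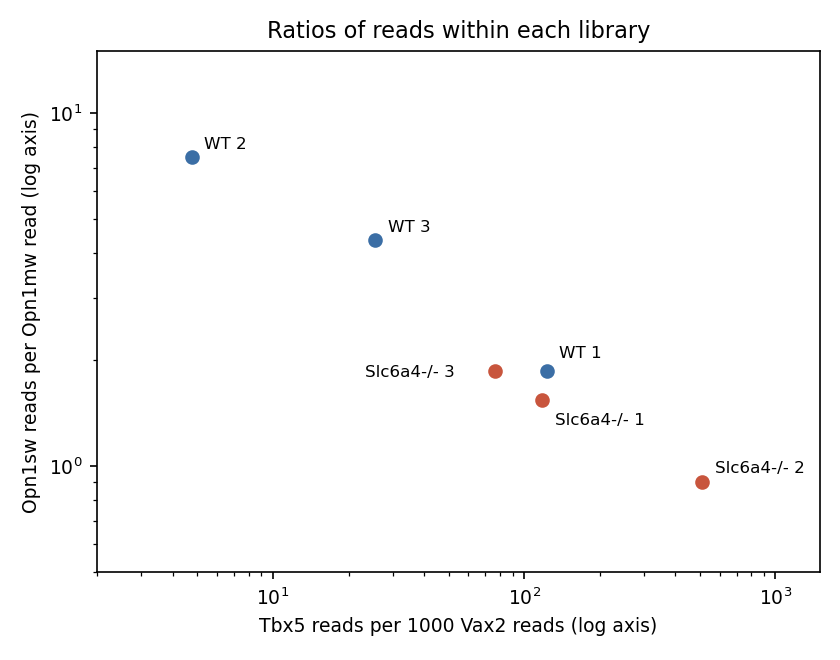
Tbx5 reads per 1000 Vax2 reads (horizontal, log axis) against Opn1sw reads per Opn1mw read (vertical, log axis) in each of the 6 libraries, WT in blue and Slc6a4-/- in red. WT 2 (4.75 and 7.5) and Slc6a4-/- 2 (510 and 0.904) lie at opposite ends, and WT 1 (123 and 1.86) lies beside Slc6a4-/- 1 and Slc6a4-/- 3.

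Over genes with a mean of at least 100 scaled counts, those whose log2 values over the 6 libraries were most like Tbx5 among 514 compared were Nr2f2 (Pearson r = 0.98), Gm14327 (0.96) and Alpk2 (0.96). For Vax2, among 513 compared, they were Opn1sw (0.98), the potassium channel gene Kcnh7 (0.96) and the beta-tubulin gene Tubb4a (0.93). Vax2 was the gene least like Tbx5 (-0.99), and Aldh1a1, the BMP pseudoreceptor gene Bambi and Necab2 were those least like Vax2 (-0.98 each). These r values are descriptions and carry no test.

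Levels between genes were compared only per length, as RPKM, which divides the reads of a gene by its exon length (GENCODE M21) and by the depth of the library. In WT VT retina the order was Aldh1a1 (5.40 ± 1.98), Vax2 (4.65 ± 1.82), Chrdl1 (1.78 ± 0.285), Efnb2 (0.958 ± 0.393), Nr2f2 (0.530 ± 0.246), Bmp4 (0.376 ± 0.078) and Tbx5 (0.0438 ± 0.0424) (SD, n = 3). The SD ranges of Aldh1a1 and Vax2 overlapped, as did those of Efnb2 and Nr2f2 and those of Nr2f2 and Bmp4. These SDs are taken over libraries and do not compare the genes within a library. Efnb2 had more reads than Nr2f2 in all 6 libraries on a shorter exon length (6855 against 8625 bases). In Slc6a4-/- the sequence of genes was the same, with Aldh1a1 at 9.41 ± 3.30 and Vax2 at 2.60 ± 0.703, now apart by more than their SDs. The SD range of Vax2 overlapped that of Chrdl1 (2.25 ± 0.0639) there. So did the range of Efnb2 (1.41 ± 0.691) with that of Nr2f2 (0.740 ± 0.135), and of Nr2f2 with Bmp4 (0.568 ± 0.0753). Vax2 had a level per length 106-fold that of Tbx5 in WT and 19.4-fold in Slc6a4-/-, but these ratios rested on single libraries: the first was 275-fold without WT 1 and 61.3-fold without WT 2, and the second was 39.5-fold without Slc6a4-/- 2. The RPKM depends on the exon length taken: against the authors' mean RPKM of the higher genotype, the values here were 0.505 as large for Aldh1a1, 0.574 for Nr2f2 and 0.700 for Efnb2, but 1.00 for Vax2 and Chrdl1.

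The other genes of these pathways were mostly not among the 701. Of 10 dorsal genes listed, the 5 described were present, and of 10 ventral genes Vax2 and Chrdl1. The BMP signalling list had 4 of 22 genes in the table (Bmp4, Chrdl1, Bmp7 and Bambi), all with a higher mean in Slc6a4-/- and none past the adjusted threshold in limma. Bmp7, another BMP ligand, had 402, 312 and 201 scaled counts in WT 1 to 3 and 432, 392 and 397 in Slc6a4-/- 1 to 3, with WT 1 inside the Slc6a4-/- range. The list of ephrins and Eph receptors had 2 of 21 (Efnb2 and Epha6). Epha6, an Eph-A receptor that varies along the nasotemporal axis, was the 1 of 10 nasotemporal genes present, and its Slc6a4-/- libraries all lay below WT (log2 fold change -0.24, adjusted p = 0.11 in limma).

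Markers of tissue next to the retina differed between the same libraries. Of 12 pigment cell markers, 5 were in the table (Pmel, Dct, Tyrp1, Mlana and Kcnj13), all with higher means in Slc6a4-/- and none at 0 in any library. Their summed scaled counts were 2089, 1483 and 726 in WT 1 to 3 and 3122, 3462 and 1847 in Slc6a4-/- 1 to 3, so WT 1 exceeded Slc6a4-/- 3 and WT 3 was lowest. Of 10 markers of ciliary epithelium, the rim of the peripheral retina, 7 were in the table, all higher and 1 (Prss56) past the adjusted threshold in limma, with sums of 5206, 4808 and 3688 in WT and 6689, 6906 and 6163 in Slc6a4-/-. Like Bmp4 and Chrdl1, both sums had WT 3 as the lowest and WT 1 as the highest WT library, whereas Tbx5, Nr2f2, Efnb2, Aldh1a1 and Vax2 had WT 2 at the WT extreme. Their part in the patterning gene values was not tested. The remaining marker lists had few genes in the table. The 3 of 8 myeloid markers present (Aif1, Ccr2 and Lyz2) all had higher means in Slc6a4-/-, with log2 fold changes of 0.85 to 1.94 and sums of 232, 138 and 90.6 in WT 1 to 3 against 336, 254 and 231 in Slc6a4-/- 1 to 3, and Ccr2 was at 0 in WT 3. The 2 of 7 fibroblast markers differed in opposite directions, Col1a1 at -1.23 with every Slc6a4-/- library below WT and Fbln1 at 1.13 with overlap. Of 7 markers of Mueller glia and astrocytes Gfap was present (-0.39, every Slc6a4-/- library below WT), and of 12 for retinal ganglion cells Nefl (-0.18, overlapping). None of these genes passed the adjusted threshold in limma, and their part in the patterning gene values was not tested. Of 9 photoreceptor markers the table held the 2 opsins, and of 8 for vascular endothelium none. With so few markers among selected genes, the labelled tissue could not be checked against its defining genes.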

How the data were processed

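The authors made total RNA libraries with ribosomal RNA reduced, aligned the paired reads to GRCm38 and counted them per gene in CLC Genomics Workbench. Their deposited table holds raw read counts for 701 genes that had p below 0.05 in the comparison of the 6 libraries, and the authors' mean RPKM of the higher genotype. Larger counts carried commas and 25 lines were blank. The authors' fold changes and p-values were not used, and all 6 count columns were (0 left out). Depth per library (75.5 to 94.0 M reads) was recovered by least squares from that RPKM column and GENCODE M21 exon lengths (78 genes for WT, 62 for Slc6a4-/-, standard error at most 0.224%), and scaled counts are counts over relative depth. Genotypes were compared with limma 3.58.1 (R 4.3.3; lmFit, eBayes with trend) on log2(scaled count + 1), which understates folds of low genes, with Benjamini-Hochberg adjustment over the 701 genes. No count model was run, because the comma-written counts did not pass the unit check. With 3 pools per genotype, p-values measure the spread between pools. On data simulated for this comparison over 701 genes, 72 of 98 genes changed 1.5-fold and 96 of 102 changed 2-fold were recovered, with 8 false calls among 501. The simulation gave every gene the same fixed spread, smaller than the WT coefficient of variation of the 7 genes (16% to 96.9%). These recovery rates therefore do not carry over to the 7 genes. The named genes were the 7 genes, Slc6a4, the genes of fixed lists and the 3 most like Tbx5 and Vax2, and those least like them were added after their values were seen. The 7 genes and the lists were chosen with earlier results of these data known. Replicate block, scaling, pseudocount, low-count filter, trend, voom weights and leaving out each library were the alternatives. The count for the retinoic acid list is not reported here.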

Additional observations from a re-analysis of the deposited data

How the results depend on the processing

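All 105 alternative fits of the 7 genes kept their direction (100 on the same side of the threshold, 5 newly past it, 0 reversed). The genes had been selected on this contrast in the same libraries, which favours a kept direction. Newly past an adjusted p of 0.05 in limma were Aldh1a1 (1.09), Nr2f2 (0.91), Vax2 (-1.12) and Chrdl1 (0.48) without WT 1, and Chrdl1 (0.53) with no scaling. Leaving out each library in turn gave log2 fold changes of 1.00 to 2.57 for Tbx5, 0.53 to 1.09 for Aldh1a1, 0.42 to 0.72 for Bmp4, 0.15 to 0.84 for Efnb2, 0.23 to 0.91 for Nr2f2, -1.12 to -0.52 for Vax2 and 0.28 to 0.48 for Chrdl1. Of the 7 genes, 0 passed in limma (3 at an unadjusted p below 0.05), 1 with no scaling and 0 to 4 when a library was left out. Of the 701 genes, 9 passed (6 higher), 160 with no scaling (152 higher), 43 without trend (30 higher), 5 when each library was centred on its median (1 higher), 8 with TMM-type factors (4 higher) and 8 with voom weights (4 higher). Leaving out a library gave 4 (without WT 2) to 171 (without WT 1, 143 higher), with 5 without Slc6a4-/- 2 and 17 without Slc6a4-/- 3. The causes were not tested. With the replicate number as a replicate block 15 of the 701 genes passed (9 higher) and 0 of the 7, but the deviations of same-numbered libraries correlated at 0.251, -0.193 and 0.0566 and the numbers do not pair the libraries. Counting error adds to the spread between pools for Bmp4 and Tbx5, which had the fewest reads, though the Tbx5 spread lay beyond it.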
